A study of Mus musculus with 36 samples.

Results

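The 5 genes described here, Srebf1, Srebf2, Insig1, Insig2 and Scap, control the sterol regulatory element-binding proteins (SREBPs), the transcription factors behind cholesterol and fatty acid synthesis in liver. They were chosen by gene symbol, and 11 of the 23978 array probes with 1 symbol report them, out of 16593 genes with such a probe. Of these 11 probes, 9 were bright enough to be tested, with at least 1 for each gene. The limit was a median intensity, without detection calls. The paper states that its assay did not detect Srebf2. Its probe was the dimmest of the 9, with a median of 167.1. Srebf1 lies on chromosome 11, Srebf2 on 15, Insig1 on 5, Insig2 on 1 and Scap on 9. Liver RNA of 36 male C57BL/6J mice, killed at 9 weeks of age after a fast of 4 hours, had been hybridized to Illumina MouseRef-8 v2.0 arrays, 1 array for each mouse. The mice had no engineered allele. Dams ate a diet rich in fat (HF) or poor in fat (LF), and their male pups were placed on either diet after weaning. Groups are written with the diet of the dam first and that of the pup last. LF_LF held 9 mice from 4 cages, LF_HF 8 mice from 4 cages, HF_LF 9 mice from 5 cages and HF_HF 10 mice from 4 cages. The HF diet was also low in carbohydrate, so fat and carbohydrate cannot be told apart. No cage held pups of dams on both diets, so the maternal diet can be separated from cage only as far as several cages shared 1 diet.

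SREBPs are made as inactive precursors in the membrane of the endoplasmic reticulum, where they are bound to SCAP, a sterol-sensing escort protein. When sterols are scarce, SCAP carries the precursor to the Golgi, where proteases release the active fragment. When sterols are plentiful, INSIG proteins hold SCAP back in the endoplasmic reticulum. Srebf2 encodes SREBP-2, which mainly drives cholesterol synthesis. Srebf1 encodes SREBP-1, whose main liver form drives fatty acid synthesis. Srebf2 and Insig1 are themselves among the known targets of SREBPs, while Insig2 is not held to depend on them in the same way. Arrays measure messenger RNA, and neither the cleavage of SREBPs nor any protein was analysed here.

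The upstream sequences below are shown because Srebf2 and Insig1 were the members whose RNA had the highest correlation with that of cholesterol synthesis genes, although it did not pass a test. Hmgcs1, the synthase at the entry of the mevalonate pathway, is 1 of the genes they were compared with. Each is the 250 bases before the annotated transcription start, from RefSeq on GRCm38.p6, written along the strand of the gene. The windows are chr15:82147019-82147268 (plus strand) for Srebf2, chr5:28071162-28071411 (plus strand) for Insig1 and chr13:119690101-119690350 (plus strand) for Hmgcs1. Capitals mark every match to TCACNCCA, the core of many sterol regulatory elements with N for any base, and to the E-box CACGTG.
Srebf2 upstream: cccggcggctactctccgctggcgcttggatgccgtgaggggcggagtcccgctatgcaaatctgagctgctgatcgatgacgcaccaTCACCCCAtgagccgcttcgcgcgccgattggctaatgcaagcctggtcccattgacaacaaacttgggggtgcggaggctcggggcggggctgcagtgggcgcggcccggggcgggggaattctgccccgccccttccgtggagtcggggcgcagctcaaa
Insig1 upstream: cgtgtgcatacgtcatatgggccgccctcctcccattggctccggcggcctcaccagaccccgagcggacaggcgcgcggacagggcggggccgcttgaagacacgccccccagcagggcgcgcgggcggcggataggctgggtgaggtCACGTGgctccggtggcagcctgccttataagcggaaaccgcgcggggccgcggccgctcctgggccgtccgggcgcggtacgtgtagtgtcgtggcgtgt
Hmgcs1 upstream: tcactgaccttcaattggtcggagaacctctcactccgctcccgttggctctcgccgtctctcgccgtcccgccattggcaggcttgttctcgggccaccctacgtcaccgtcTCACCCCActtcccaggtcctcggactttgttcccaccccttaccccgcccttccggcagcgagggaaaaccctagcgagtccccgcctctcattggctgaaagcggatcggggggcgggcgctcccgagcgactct

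Srebf2 and Hmgcs1 each held 1 TCACNCCA match, spelled TCACCCCA in both, which began 162 bases before the start in Srebf2 and 137 bases before it in Hmgcs1. This motif, chosen after these sequences had been read, was matched on either strand in 3.67% of 32851 windows of the same length. The Insig1 window held no TCACNCCA match. It held the E-box from 101 to 96 bases before the start, a motif found in 6.02% of windows. Neither motif was matched upstream of the 3 annotated starts of Srebf1, the 3 of Insig2 or the 1 of Lss, and Scap had an E-box before 1 of its 2 starts. The CCAAT box (CCAAT or, on the other strand, ATTGG) was matched once in the Srebf2 window, once in that of Insig1 and 3 times in that of Hmgcs1, against 33.8% of all windows with at least 1 match. GC boxes (GGGCGG or CCGCCC) numbered 4 in Srebf2, 3 in Insig1 and 2 in Hmgcs1, against 32.7% of windows with any. No TCACNCCA or E-box match overlapped another motif searched. A match is a description of letters and does not show binding.

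On these arrays the median correlation of each array with the others lay between 0.985 and 0.992. Markers of hepatocytes such as Ttr and Apoa1 were among the brightest probes, with medians of 24924 and 26197, while the probe of Alb read 192 and that of Tat was below the limit for testing. All 3 adipocyte markers with a probe were below that limit. The mice LF_HF replicate 2 and LF_HF replicate 5 stood apart in markers of other liver cells. LF_HF replicate 2 had a summed intensity of 2199 over 4 endothelial markers (Pecam1, Stab2, Clec4g and Lyve1), where the other 7 mice of its group had 3679 to 4932. Over 4 macrophage markers (Adgre1, Clec4f, Marco and Lyz2) it had 766.6, where the other 7 had 1502 to 3618. The value of 3618 was that of LF_HF replicate 5, where the next of its group had 2251 and the highest in any other group was 2746. For some of the values that rest on either mouse, the value without it is given as well. In whole liver, fewer cells of a type and less RNA per cell cannot be told apart.

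Of the 2 transcription factor genes, Srebf2 had the larger differences by the pups' diet, although neither gene passed a test. In pups of LF dams its intensity ran from 114 to 175 with a median of 156.5 on LF, and from 143 to 191 with a median of 181 on HF. The HF mice were higher by 0.25 ± 0.08 (log2 difference ± SE), or 1.19-fold, with an unadjusted p of 0.00679 and an adjusted p of 0.107. In pups of HF dams it ran from 131 to 182 (median 158.5) on LF and from 136 to 258 (median 184) on HF, a difference of 0.20 ± 0.09 with adjusted p = 0.163. The ranges overlapped in both comparisons, and neither passed the 5% false discovery rate that is the threshold throughout. Between pups of HF and LF dams on 1 diet, Srebf2 differed by 0.09 ± 0.08 on LF and 0.05 ± 0.09 on HF, with 95% intervals from -0.07 to 0.26 and from -0.14 to 0.24.

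Mice with 1 cage number but different diets allowed the same comparison within cages. Per the study's methods males born in a cage were divided between the diets at weaning, but whether the number in the labels names the birth cage or later housing is not stated. There were 5 such cages, with 1 to 3 mice on each diet, of which 2 came from dams on LF. Srebf2 was higher on HF in 5 of 5 cages, by 0.04 to 0.47 on the log2 scale with a median of 0.17. With cage as a fixed block the differences were 0.19 in both comparisons, with adjusted p = 0.578 in pups of LF dams and 0.401 in pups of HF dams. Over all alternatives the adjusted p ranged from 0.0602 to 0.578 and from 0.0645 to 0.414.

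Srebf1 was close to even across the groups. Its bright probe, ILMN_2792089, ran from 251 to 421 with a median of 355 in LF_LF and from 330.5 to 537 with a median of 351 in LF_HF. It ran from 247 to 427 with a median of 336 in HF_LF and from 287.5 to 414 with a median of 337 in HF_HF. The 4 medians lay between 336 and 355, and every pair of ranges overlapped. The pairwise differences were -0.03 and -0.12 for the maternal diet and 0.12 and 0.03 for the post-weaning diet, with SEs of 0.09 to 0.12 and adjusted p from 0.646 to 0.976. The highest value, 537, came from LF_HF replicate 2, the mouse with few endothelial and macrophage transcripts, and without it the difference on HF by maternal diet was -0.05 and the post-weaning difference in pups of LF dams was 0.04. A second Srebf1 probe, ILMN_2696876, read 49.2 to 62.1 in all 36 mice, near the lowest value of 45.7 in the table, and was not tested in the main comparison. With no filter its differences lay between -0.05 and 0.05.

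Scap was even as well. It ran from 163 to 249 (median 221) in LF_LF, from 191 to 264 (median 231) in LF_HF, from 179.6 to 247.5 (median 203) in HF_LF and from 174 to 294 (median 209) in HF_HF. All groups overlapped over most of their ranges. The 4 pairwise differences lay between -0.10 and 0.09 with SEs of 0.08 and 0.09, and the 95% intervals together covered -0.28 to 0.26.

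**Figure D1:**
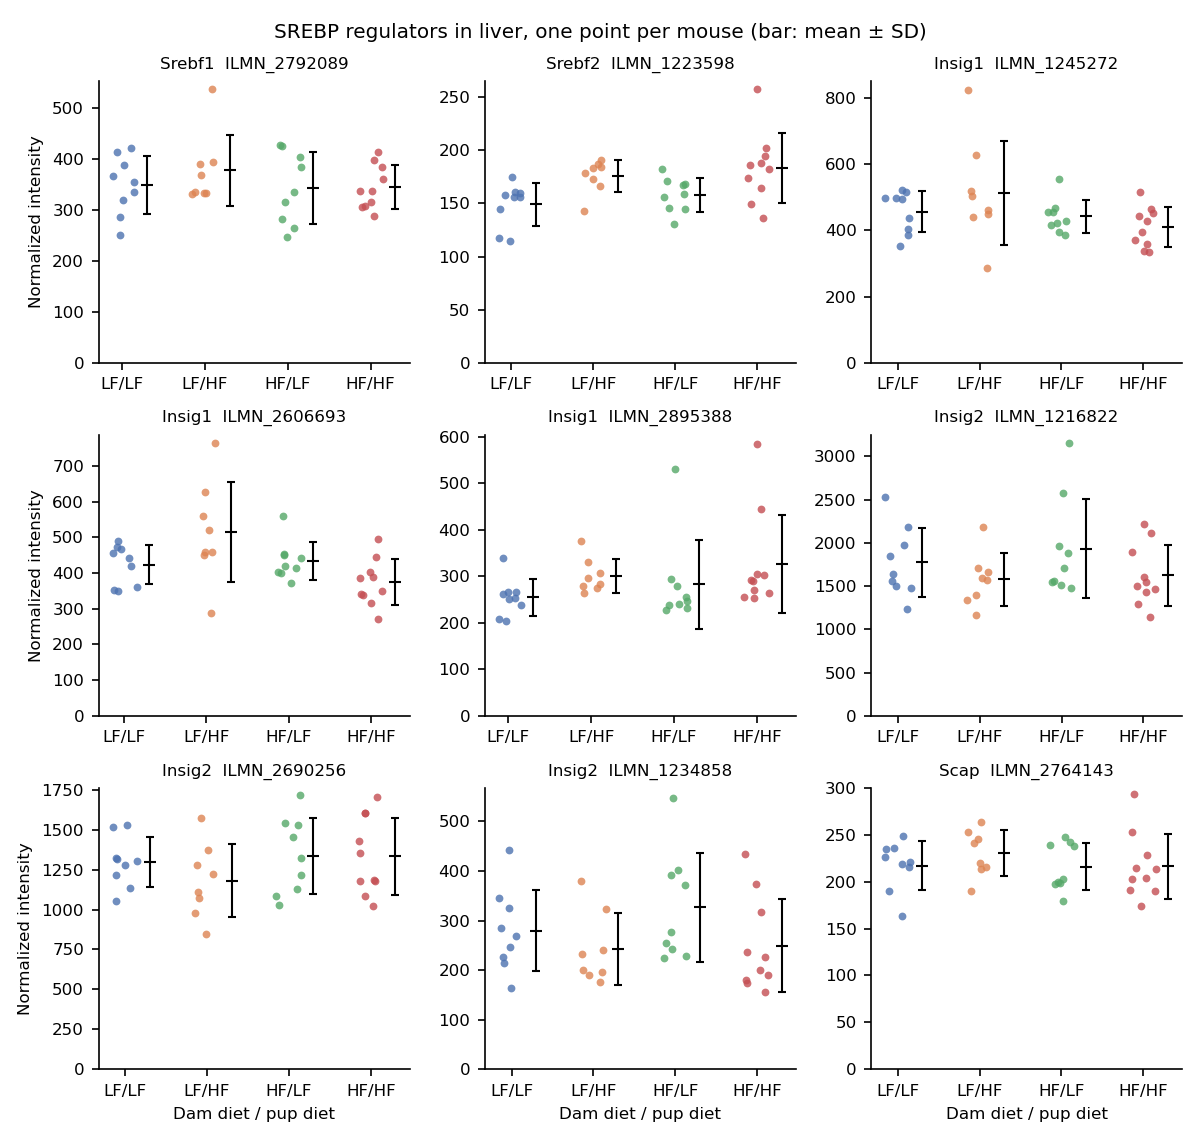
Normalized intensity (linear scale from 0) of the 9 tested probes of Srebf1, Srebf2, Insig1, Insig2 and Scap, with 1 point for each of 36 mice in the 4 groups named dam diet / pup diet; bars give mean ± SD. The groups overlap in every panel. Insig1 probes ILMN_1245272 and ILMN_2606693 spread most in LF/HF. There LF_HF replicate 5 is highest (824 and 762.5) and LF_HF replicate 2 lowest (287 and 288).

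Insig1, the INSIG gene that SREBPs induce, had 3 bright probes that did not move as 1. Probes ILMN_1245272 and ILMN_2606693 varied together among mice of a group, with r = 0.94 over 36 mice after each group mean had been removed. Probe ILMN_2895388 had r = 0.21 with the first and 0.20 with the second. All 3 are assigned to NM_153526, and where on it each one lies was not analysed here. The probe ILMN_2620965 read 54.5 to 70.4 in all mice and was left out as dim.

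Of all pairwise differences of member probes, that of ILMN_2606693 by maternal diet in pups on HF was the largest, and it did not pass. ILMN_2606693 ran from 351 to 489.7 with a median of 443 in LF_LF, and from 371 to 558 with a median of 418 in HF_LF. In LF_HF it ran from 288 to 762.5 with a median of 490.4, and in HF_HF from 272 to 495 with a median of 368. Among pups on HF, those of HF dams were thus lower by median, with overlapping ranges. The log2 difference was -0.43 ± 0.14, or 0.740-fold, with unadjusted p = 0.00502 and adjusted p = 0.224. The post-weaning differences of this probe had opposite signs, 0.25 ± 0.14 in pups of LF dams and -0.23 ± 0.09 in pups of HF dams. The interaction, which is the second minus the first, was -0.47 ± 0.17 with unadjusted p = 0.00765 and adjusted p = 0.639. With 1 mean per cage and group the maternal difference was -0.32 with adjusted p = 0.786.

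ILMN_1245272 gave smaller differences of the same signs by maternal diet on HF and in the interaction. It ran from 352 to 522 (median 494) in LF_LF, from 287 to 824 (median 483) in LF_HF, from 387 to 556 (median 428) in HF_LF and from 335 to 517 (median 413) in HF_HF. The difference by maternal diet on HF was -0.28 ± 0.14 (adjusted p = 0.467) and the interaction was -0.24 ± 0.17 (adjusted p = 0.883). LF_HF replicate 5 held the highest value of both probes, and without it the maternal differences on HF were -0.17 for ILMN_1245272 (adjusted p = 0.629) and -0.35 for ILMN_2606693 (adjusted p = 0.326). The post-weaning differences in pups of LF dams were then 0.02 and 0.16, in place of 0.13 and 0.25. Without LF_HF replicate 2 instead, they were 0.24 and 0.36 (adjusted p = 0.334 and 0.0754). The maternal difference on HF of ILMN_1245272 was then -0.39 (adjusted p = 0.176). The interactions of ILMN_1245272 and ILMN_2606693 were -0.35 and -0.59 without replicate 2, and -0.13 and -0.39 without replicate 5. None of these passed. With all mice, the SD of ILMN_1245272 in LF_HF was 157, against 50.7 to 62.7 in the other groups. For ILMN_2606693 it was 140 against 53.5 to 64.6. LF_HF replicate 2 was the lowest of the group for the pair, at 287 and 288. The LF_HF mice other than replicates 2 and 5 ran from 441.4 to 627.7 and from 451.4 to 626.2. The wide spread thus rested on replicates 2 and 5.

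ILMN_2895388 had higher medians on HF under both maternal diets. It ran from 205 to 339 (median 254) in LF_LF, from 264 to 375 (median 289.9) in LF_HF, from 227 to 531 (median 248) in HF_LF and from 254 to 584 (median 291) in HF_HF. The mice on HF were higher by 0.25 ± 0.09 among pups of LF dams (adjusted p = 0.132) and by 0.20 ± 0.16 among pups of HF dams (adjusted p = 0.469). LF_HF replicate 2, lowest of its group for the pair, was the highest here, at 375.4 against the next mouse at 331.1. Without this mouse the difference among pups of LF dams was 0.20 (adjusted p = 0.229). By maternal diet on HF, ILMN_2895388 differed by 0.07 ± 0.13, and by 0.12 without LF_HF replicate 2, where the correlated pair was at -0.28 and -0.43 with all mice. Within cages it was higher on HF in 5 of 5 cages, by 0.08 to 0.44, whereas ILMN_2606693 was higher in 3 of 5, from -0.44 to 0.54. In pups of LF dams all 3 bright probes were thus higher on HF, at 0.13, 0.25 and 0.25, although with cage as a fixed block ILMN_1245272 was at -0.02. In the other pairwise comparisons the probes gave no single direction for Insig1.

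Of the marker lists, those of endothelial cells and macrophages moved with the correlated pair. The hepatocyte, stellate, cholangiocyte, lymphocyte and erythroid lists had r between -0.04 and 0.11 with the pair. The mean log2 of the 4 endothelial markers had r = 0.64 with ILMN_1245272, 0.66 with ILMN_2606693 and -0.02 with ILMN_2895388, over 36 mice centred on their groups. The 4 macrophage markers had r = 0.69, 0.69 and 0.07. All 4 endothelial markers followed the pair, from r = 0.35 for Clec4g with ILMN_1245272 to 0.64 for Lyve1, which is typical of sinusoidal and lymphatic endothelium. LF_HF replicate 2, low in both marker lists, was also the lowest of its group for the pair, at 287 and 288. Without it the endothelial r was 0.44 and 0.47 and the macrophage r 0.54 and 0.55. LF_HF replicate 5, highest in macrophage markers and in the pair, left 0.61 and 0.63 and 0.55 and 0.60 when it was removed. Without both mice the endothelial r was 0.38 and 0.41 and the macrophage r 0.31 and 0.39. Removing LF_HF replicate 2 moved the maternal difference on HF of ILMN_2606693 to -0.55 with adjusted p = 0.0660, where the range over all alternatives of that adjusted p was 0.0660 to 0.786. Summed endothelial intensities covered 3810 to 4945 in LF_LF, 2199 to 4932 in LF_HF, 3789 to 5236 in HF_LF and 3191 to 4775 in HF_HF. The summed macrophage intensities covered 1603 to 2484, 766.6 to 3618, 1414 to 2613 and 1144 to 2746 in the same order. The endothelial marker Kdr, whose probe was dim, was not in the sum. Marco was the dimmest macrophage marker in its sum, with a median of 87.05 against the limit of 71.5. The part of these cells in the Insig1 differences was not tested.

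**Figure D2:**
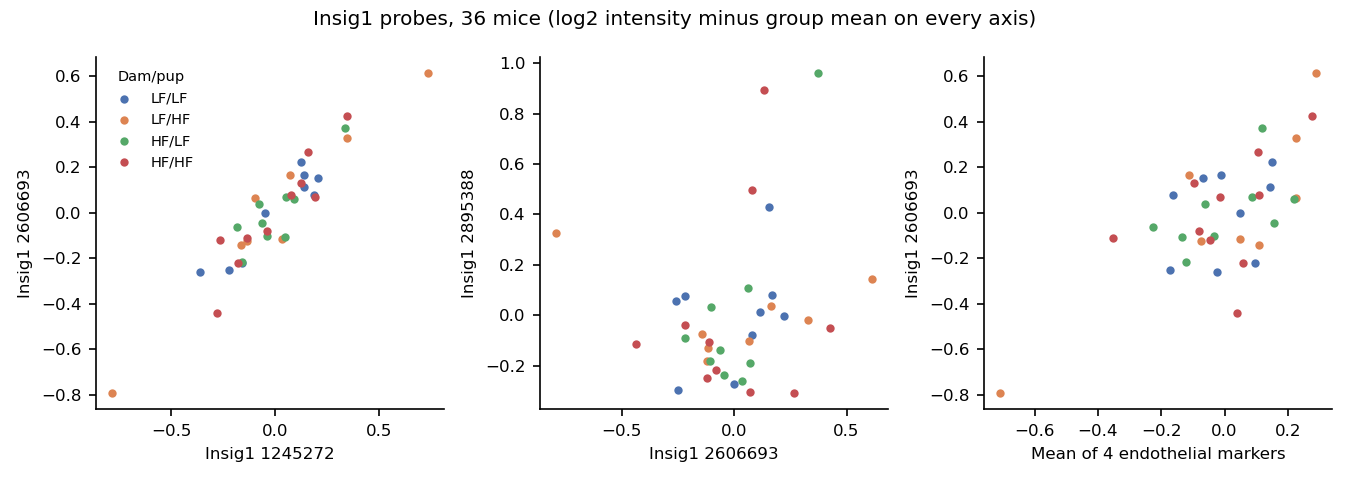
Log2 intensity minus the group mean in 36 mice, for Insig1 probe ILMN_2606693 against ILMN_1245272 (left, r = 0.94), ILMN_2895388 against ILMN_2606693 (middle, r = 0.20) and ILMN_2606693 against the mean of 4 endothelial markers (right, r = 0.66). Each point is 1 mouse coloured by dam/pup diet, and the orange point at the lower left of the left and right panels is LF_HF replicate 2.

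The 5 genes nearest to Insig1 in pattern, by r of ILMN_1245272 over the 36 centred mice, were Marcks (0.81), Esm1 (0.72), Rgl1 (0.71), Tsc22d4 (0.70) and Mmrn2 (0.70). Esm1 and Mmrn2 are known as endothelial genes. This list is for ILMN_1245272 alone, over all mice. It was not repeated without LF_HF replicate 2 and LF_HF replicate 5, the lowest and highest of their group for the probe. The neighbours of Srebf2 were Ext2 (0.83), Ap1m1 (0.76), Nsf (0.74), Grhpr (0.71) and B4gat1 (0.70). Those of Srebf1 were Ces3b and Scnn1a (0.67 each), Eef2k (0.65), Tubgcp2 and Col27a1 (0.64 each). Insig2 was nearest to Cdkn1a (0.68), Pgp (0.67), Alg14 and Bcl2l1 (0.65 each) and Rabl2 (0.64). Scap was nearest to Abhd16a and Mgrn1 (0.73 each), then Derl2, Zbtb39 and Eno1b (0.68 each). No member was among the 5 neighbours of another. Each list is the top of 8538 genes with a tested probe, and the mice share arrays across genes.

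Insig2, the second INSIG, had 3 tested probes that varied together, with r of 0.74 to 0.85 between them. The probes ILMN_1216822 and ILMN_1234858 are assigned to NM_178082, and ILMN_2690256 to NM_133748. ILMN_1216822 ran from 1240.0 to 2526 (median 1644) in LF_LF, from 1164 to 2180.4 (median 1582) in LF_HF, from 1480.5 to 3149.5 (median 1706.5) in HF_LF and from 1145.5 to 2218 (median 1529) in HF_HF. Its mice on HF were lower by median under both maternal diets, with differences of -0.16 ± 0.13 and -0.23 ± 0.14 (adjusted p = 0.588 and 0.334). ILMN_1234858 ran from 163 to 442 (median 269), from 176 to 379.7 (median 216), from 225 to 548 (median 276) and from 156 to 434 (median 214) in the same order of groups. It differed by -0.20 ± 0.17 and -0.41 ± 0.19 by post-weaning diet, the second with unadjusted p = 0.0447 and adjusted p = 0.190.

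ILMN_2690256 was at medians of 1304, 1167, 1326.5 and 1271 in LF_LF, LF_HF, HF_LF and HF_HF, inside a range of 847 to 1719 over all mice. It differed by -0.15 ± 0.10 in pups of LF dams and by 0.00 in pups of HF dams, with a 95% interval from -0.23 to 0.22. In that comparison the other 2 probes gave -0.23 and -0.41, and the difference between the probes was not tested. Within cages, 1 cage of HF dams, cage 23, gave the lowest value for each Insig2 probe, at -0.64, -0.42 and -0.99 for ILMN_1216822, ILMN_2690256 and ILMN_1234858. By maternal diet the 3 probes differed by 0.03 to 0.21 on LF and by 0.01 to 0.18 on HF, with SEs up to 0.19.

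Counted together, 0 of the 9 member probes passed in limma in any of the 5 comparisons. For the maternal diet on LF, 0 of 9 passed and 0 had an unadjusted p under 0.05, against 0% and 6.53% of 12289 probes. For the maternal diet on HF 0 of 9 passed and 1 had such a p, against 0.269% and 11.0%. For the post-weaning diet the counts were 0 and 2 in pups of LF dams, against 3.06% and 16.6%, and 0 and 3 in pups of HF dams, against 11.3% and 24.3%. For the interaction they were 0 and 1, against 0% and 6.31%. The median difference of the member probes was 0.04, 0.01, 0.12 and 0.00 in the 4 pairwise comparisons in that order, where the median of all probes lay between -0.01 and 0.00. The 95% intervals of the 9 probes together covered -0.81 to 0.58, so changes beyond these bounds lay outside the intervals of all 9. Intensities were deposited without background subtraction, which shrinks the differences of dim probes.

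**Figure D3:**
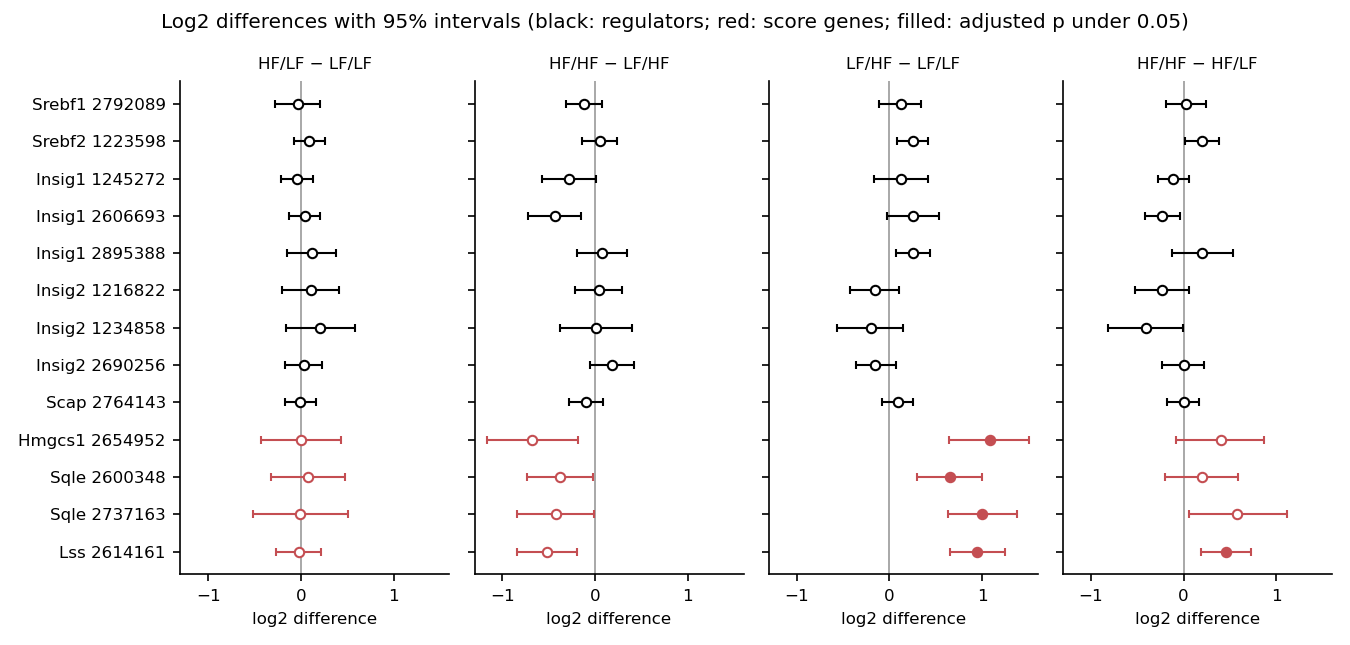
Log2 differences (points) with 95% intervals (bars) for 9 probes of the regulators (black) and 4 probes of Hmgcs1, Sqle and Lss (red) in the 4 pairwise comparisons, named dam/pup diet. Filled points, all of them red, passed the adjusted threshold: 4 in LF/HF − LF/LF and Lss alone in HF/HF − HF/LF.

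Some genes that SREBPs control passed in the same comparisons. In pups of LF dams, 7 of 15 cholesterol synthesis genes rose on HF and 0 fell, with a median difference of 0.57 over the 15, against 3.06% of all probes called. Lss, which closes the sterol ring, rose by 0.95 ± 0.14, Sqle, the epoxidase before it, by 1.00 ± 0.18, Hmgcs1 by 1.08 ± 0.21 and Dhcr7, the last reductase, by 0.59 ± 0.11, with adjusted p between 9.88e-04 and 0.00561. In pups of HF dams 1 of 15 rose, Lss at 0.46 ± 0.13 (adjusted p = 0.0247), and the median was 0.12, against 11.3% of all probes called. By maternal diet 0 of 15 passed on LF or HF, with medians of -0.01 and -0.28, and 0 and 7 had an unadjusted p under 0.05. The score genes belong to this list and were chosen with their behaviour known. With cage as a fixed block 2 rose in pups of LF dams and 3 in pups of HF dams, and with 1 mean per cage and group 0 rose in either. Without LF_HF replicate 2 the count in pups of LF dams was 8. Lss in pups of HF dams did not pass without HF_LF replicate 7 or HF_LF replicate 8 (adjusted p = 0.0511 and 0.0524).

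Of 14 fatty acid synthesis genes, the usual targets of SREBP-1, 10 fell on HF in pups of HF dams and 2 in pups of LF dams. The medians were -0.40 and -0.08, and 0 rose in either. Of all probes, 11.3% and 3.06% were called in these comparisons, in either direction. In pups of LF dams 6 of the 14 had differences above 0. In pups of HF dams Elovl6, a fatty acid elongase, fell by 1.21 ± 0.16, Acaca, the carboxylase that makes malonyl-CoA, by 0.96 ± 0.10, Acly, which supplies cytosolic acetyl-CoA, by 0.91 ± 0.14 and Me1, a source of NADPH, by 0.90 ± 0.15, with adjusted p from 6.62e-06 to 4.87e-04. Srebf1 in the same comparison differed by 0.03 with a 95% interval from -0.19 to 0.24. By maternal diet on HF 2 of 14 fell, against 0.269% of all probes called, and the median was -0.25. On LF 0 of 14 passed, against 0% of all probes, and 0 had an unadjusted p under 0.05. With cage as a fixed block, or with 1 mean per cage and group, the 10 became 5. The 2 in pups of LF dams, Elovl6 and Me1, became 0 with the fixed block (adjusted p = 0.0710 and 0.272) and 1 with cage means. The 2 that fell by maternal diet became 1 with cage as a random block and 0 with cage means. With 1 mouse left out they ranged from 0, without LF_HF replicate 4, to 4, without LF_HF replicate 1, and 1 fell without LF_HF replicate 2 or LF_HF replicate 5.

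Among 11 measured genes for SREBP proteases, vesicle coat proteins and turnover factors, Rnf145, a sterol-responsive ubiquitin ligase, fell on HF by 0.41 ± 0.07 in pups of LF dams (adjusted p = 0.00323) and by 0.67 ± 0.09 in pups of HF dams (adjusted p = 7.93e-05). In the second of these Sec23a, a component of the coat of vesicles leaving the endoplasmic reticulum, fell by 0.27 ± 0.07 (adjusted p = 0.0143). Erlin1, a membrane protein that binds the SREBP complex, fell by 0.36 ± 0.07 with the maternal HF diet in pups on HF (adjusted p = 0.0347), a call that was lost in 17 of 33 alternatives, among them 10 of the 18 that left out 1 mouse, with adjusted p = 0.0581 without LF_HF replicate 2 and 0.778 with cage means. With cage as a fixed block Sec23a did not pass (adjusted p = 0.191), nor did Rnf145 in pups of LF dams (adjusted p = 0.112). The remaining genes of the list did not pass in these 3 comparisons, and 0 of 11 passed by maternal diet on LF or in the interaction. The list medians lay between -0.05 and 0.03. Of all probes, 3.06% and 11.3% were called by post-weaning diet in pups of LF and HF dams, and 0.269% by maternal diet on HF. Of 7 genes of lipoprotein uptake and sterol transport, Scarb1, the receptor for high-density lipoprotein, rose by 0.31 ± 0.06 on HF in pups of HF dams (adjusted p = 0.00144), and no other passed in any of the 5 comparisons. For the 6 genes of the liver X receptor list, a receptor for oxysterols that also drives Srebf1, 0 passed in any of the 5 comparisons. At most 2 had an unadjusted p under 0.05 there. In the relation to the sterol score, described below, 0 of the 6 passed and 3 had such a p, against 11.4% of all probes tested.

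The relation to sterol synthesis was described with a sterol score for each mouse, the mean log2 intensity of Hmgcs1, Sqle and Lss. The score ran from 9.50 to 10.60 in LF_LF, from 10.23 to 11.66 in LF_HF, from 9.28 to 10.72 in HF_LF and from 9.61 to 11.18 in HF_HF, with means ± SD of 10.01 ± 0.36, 11.02 ± 0.45, 10.00 ± 0.51 and 10.48 ± 0.46. Because the groups differed, score and probe were both centred on the group mean, and mice were permuted within groups. Of the 9 member probes 0 passed and 3 had an unadjusted p under 0.05, against 0.700% and 11.4% of 12285 probes tested. The 86 probes that passed included 9 of the 12 other cholesterol synthesis genes, all with r above 0. The score genes come from the same list and were chosen with their behaviour known. The overlap is therefore a description and not a check of the score.

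Srebf2 had the highest r of the members, 0.41 (permutation p = 0.0153, adjusted p = 0.263), with Spearman's rho of 0.32 (permutation p = 0.0785, adjusted p = 0.552). For Insig1, ILMN_2606693 had r = 0.39 (permutation p = 0.0249, adjusted p = 0.324) and rho = 0.37 (permutation p = 0.0392, adjusted p = 0.445). ILMN_1245272 had r = 0.34 (permutation p = 0.0478, adjusted p = 0.429) and rho = 0.39 (permutation p = 0.0295, adjusted p = 0.406). ILMN_2895388 had r = 0.24 (permutation p = 0.207, adjusted p = 0.705), and r = 0.08 without HF_LF replicate 4. The remaining probes were near 0, with r of -0.19 for Srebf1, 0.07 for Scap and -0.03, 0.07 and 0.10 for Insig2, and adjusted p of 0.771 or more. In the fit with diet group in the model, 1 log2 unit of score went with 0.18 log2 units of Srebf2 (95% interval 0.04 to 0.32) and 0.23 of ILMN_2606693 (0.04 to 0.42), and with -0.11 of Srebf1 (-0.29 to 0.08).

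With the 2 mice farthest from the median score left out, LF_HF replicate 7 and HF_LF replicate 8, r was 0.40 for Srebf2, 0.40 and 0.34 for the Insig1 pair and 0.20 for ILMN_2895388. Leaving out each mouse in turn moved r of Srebf2 between 0.35 and 0.46 and that of ILMN_2606693 between 0.33 and 0.44. Centred on cage and group, Srebf2 had r = 0.47 (permutation p = 0.00535), whereas the 3 Insig1 probes had r between -0.03 and 0.03, and ILMN_2690256 of Insig2 reached 0.50 (permutation p = 0.0354). No probe of the 12285 passed in that setting, and the adjusted p of Srebf2 was 0.462. Without centring, Srebf2 passed at r = 0.54 (adjusted p = 0.0150) with 1204 probes in all, a value that also holds the diet differences of both measures. Over its 64 alternatives r of Srebf2 stayed between 0.23 and 0.54, with adjusted p from 0.0150 to 0.736.

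Within single groups, where no probe on the array passed, the values scattered. Srebf2 had r = 0.73 in LF_LF (exact permutation p = 0.0245, adjusted p = 0.893), 0.16 in LF_HF, 0.32 in HF_LF and 0.43 in HF_HF. Insig1 ILMN_1245272 had 0.37, 0.27, 0.74 (exact permutation p = 0.0159, adjusted p = 0.534) and 0.27 in the same order. With the 2 mice farthest from the group's median score left out, Srebf2 went from 0.32 to -0.58 in HF_LF and ILMN_1245272 from 0.27 to -0.39 in HF_HF. Before the removal these values had permutation p = 0.392 (exact) and 0.444, so neither had shown a relation. Under the same removal Srebf2 was at 0.67 in LF_LF and ILMN_1245272 at 0.74 in HF_LF.

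**Figure D4:**
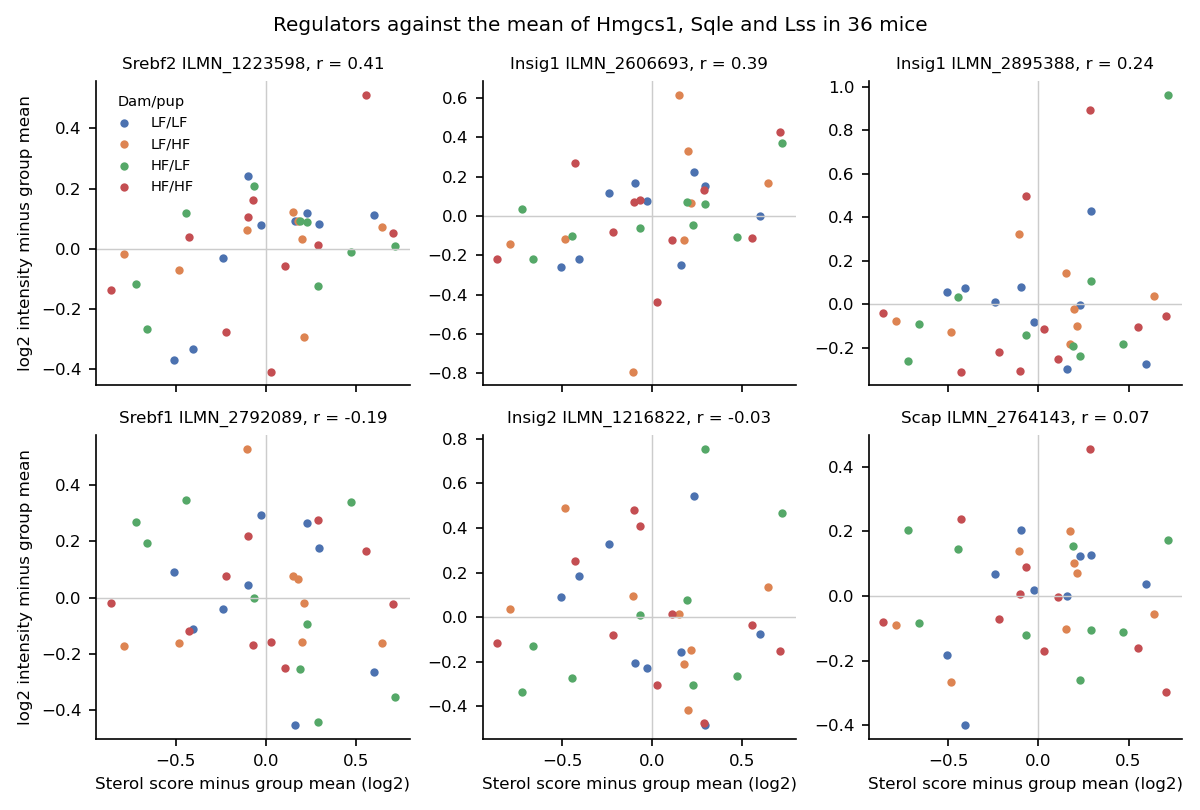
Log2 intensity of 6 member probes minus the group mean (vertical) against the sterol score, the mean log2 of Hmgcs1, Sqle and Lss, minus its group mean (horizontal), with 1 point for each of 36 mice coloured by dam/pup diet. Points drift upward for Srebf2 (r = 0.41) and Insig1 ILMN_2606693 (r = 0.39) and show little slope for Scap (r = 0.07) and Insig2 (r = -0.03).

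Among themselves the members were loosely related over the 36 centred mice. Srebf2 had r = 0.28 and 0.31 with the Insig1 pair, 0.28 with Scap, 0.12 with Srebf1 and 0.01 to 0.38 with the Insig2 probes. Srebf1 had r below 0 with each Insig2 probe, at -0.33, -0.20 and -0.49, and Scap had 0.37 with Insig1 ILMN_2895388. The Insig1 pair had r between -0.04 and 0.25 with the Insig2 probes. The values of the 2 INSIG genes were thus at most weakly related. Srebf1 also had r = -0.50 with the endothelial and -0.41 with the macrophage markers, at -0.34 and -0.24 without LF_HF replicate 2 and -0.54 and -0.56 without LF_HF replicate 5, and the part of those cells in the Srebf1 values was not tested.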

How the data were processed

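The authors deposited 1 table of normalized probe intensity on a linear scale, read out with BeadStudio (submitters' processing notes; version not given in the sources used here) and quantile-normalized over 40 liver arrays. All 36 arrays share 1 distribution, and no background was subtracted. Log2 of the deposited values was tested without further normalization. Probes with a median of at least 71.5, the median over the table, were kept (12289 of 25697).

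Pairs of groups and the interaction were fitted with limma 3.58.1 in R 4.3.3 (lmFit and eBayes with a variance trend), with Benjamini-Hochberg adjustment over all kept probes at 5%. Correlations with the sterol score (3 genes, each by its probe with the highest mean) used 100000 two-sided permutations within groups, exact for single groups under 10 mice (Python 3.11.15, NumPy 2.4.6, SciPy 1.17.1). The scripts were tested on simulated data. Cage correlation used statmod 1.5.0. Gene lists used the brightest probe of a gene. Named genes are the members, the score genes, up to 4 genes with the lowest adjusted p in each list, and 5 neighbours of each member. Members, lists and tests were chosen with earlier results of these data known. The main fits took mice as the replicates and held no cage term. The maternal diet was given to dams, so the main SEs, p-values and intervals by maternal diet and in the interaction may overstate the precision. Arrays are limited in precision by their number. Alternatives covered filters, background, variance trend, cage, centring and leaving out mice or cages. Of 40 mice, 36 were analysed here.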

Additional observations from a re-analysis of the deposited data

Results flagged for a closer look

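In 4 of 48 groups of values examined (11 member probes and the score in 4 groups each), 1 mouse lay far from the rest of its group. Chance alone flags about 1 in 20 groups. HF_LF replicate 4 was the highest of 9 for 2 Insig1 probes, at 558.4 against the next mouse at 452.8 for ILMN_2606693 and at 531.1 against 293.6 for ILMN_2895388. Without this mouse the post-weaning difference in pups of HF dams was -0.18 for the first probe (adjusted p = 0.220) and 0.32 for the second (adjusted p = 0.117), and neither passed. LF_HF replicate 2 was the highest of 8 for Srebf1 ILMN_2792089, at 537.1 against 393.3, and it was the mouse lowest in endothelial and macrophage markers. LF_HF replicate 4 was the lowest of 8 for Srebf2, at 143.0 against 166.7, and without it the post-weaning difference in pups of LF dams was 0.29 with adjusted p = 0.0602.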

How the results depend on the processing

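The count of member probes past the threshold was 0 in each of the 6 analyses, and stayed 0 under the alternatives of filter, background, variance trend, joint fit and cage. It was 1 for the score without centring (Srebf2). Leaving out 1 mouse at a time gave 0 to 0 for the maternal diet on LF and on HF, the interaction and the score, and 0 to 1 for both post-weaning comparisons. The call in pups of LF dams was Insig1 ILMN_2895388 without LF_LF replicate 9 (0.30, adjusted p = 0.0353, range 0.0353 to 0.403), and that in pups of HF dams was ILMN_2606693 without HF_HF replicate 1 (-0.27, adjusted p = 0.0399, range 0.0399 to 0.663). The cause was not tested. No single cage left out gave a call. By replicate number no paired analysis was possible because the numbers only name mice in accession order. By cage it was possible, and mice of 1 cage on different diets were paired by the fixed cage block, which gave 0 member probes in both post-weaning comparisons.

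Differences and correlations below the threshold changed sign in 96 of 1773 values with 1 mouse or 1 cage left out. Under the other alternatives, which include leaving out 2 mice or a diet group in the score analysis, they did so in 30 of 468. No called value did. The calls over all probes moved more. For the maternal diet on HF they were 33, but 21 with no filter, 4 with cage as a random block, 0 with 1 mean per cage and group, and 1 to 68 with a mouse or cage left out. For the post-weaning diet in pups of LF dams they were 376, but 30 with cage means, 42 with cage as a fixed block and 113 to 439 with a mouse or cage left out. In pups of HF dams they were 1384, but 371 with cage means, 890 with cage as a fixed block and 636 to 1443 with a mouse or cage left out. For the score they were 86, but 42 by rank, 0 centred on cage, 52 with no filter, 57 with Hmgcs1 alone, 146 by the limma slope, 42 without the 2 mice of extreme score (22 by rank, and 25 by rank without the 2 mice farthest from their group mean), 18 to 50 without 1 diet group and 29 to 174 with a mouse or cage left out. Leaving out diet groups, cages or pairs of mice in the score analysis, and LF_HF replicates 2 and 5 in the marker correlations, and running the alternatives on the pathway lists, was chosen after seeing the data. Signal over background limits the dim probes of Srebf1 and Insig1, which read at most 62.1 and 70.4.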
